A study of Saccharomyces cerevisiae with 94 samples.

Results

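The 10 genes described here encode transcription factors or a coactivator that set the response of budding yeast to stress and its rate of growth: GCN4, YAP1, MSN2, MSN4, HSF1, RPN4, MET4, SFP1, RAP1 and IFH1. They were picked by gene name, with no threshold on a measured value but with earlier results of these data known. Each was found among the 10929 open reading frame models in the deposited tables, of which 5886 carry a position in the genome. All but MSN4 and IFH1 also have another row there. Levels and ratios sum the reads over the rows of a gene, and tails come from its main row. The tables come from Nanopore direct RNA sequencing (DRS), in which each native poly(A) RNA is read as a single strand, so that 1 read stands for 1 RNA molecule and also gives the length of its pA-tail. The series holds 94 samples, and its tables give 45 libraries singly and 12 further groups only as pooled columns. All strains were labelled W303 and were grown in rich medium, although the strain list of the study places the ccr4 and pan2 deletions in another background that has a WT of its own. Wild-type (WT) cells at 25 °C received an equal volume of preheated medium that took them to 37 °C, and were collected after 0 to 20 min (replicates A, B and D, 18 libraries). In Mex67-AA cells rapamycin tethers the mRNA export factor Mex67 to a ribosomal protein and so removes it from the nucleus. These cells, controls included, carried tor1-1, an fpr1 deletion, RPL13 fused to FKBP12 and MEX67 fused to FRB, and were followed at 25 °C for 0 to 30 min (replicates A, B and C, 17 libraries). WT cells at 25 °C received thiolutin for 0 to 60 min (replicate A, 8 libraries). The study describes it as an inhibitor of transcription that at low doses also turns on stress response genes. It takes its own low dose to set off a transcriptional response like that to heat. Pooled columns were used for cells depleted of Dcp2 or Xrn1 through an auxin-inducible degron (AID; both with OsTIR1, and Xrn1-AID also with tor1-1, the fpr1 deletion and RPL13-FKBP12) beside a WT strain that received the same auxin for 2 h. WT RNA digested in the tube with recombinant Xrn1 and its undigested control were 1 library each. Pooled columns were also used for Pab1-AID cells, which carry the Mex67-AA alleles too, after 1 or 2 h of auxin and without it (a control whose genotype label reads Pab1-AID and whose title reads WT). They served too for ccr4, pan2 and pop2 deletion strains and WT cells (whose labels give both 25 and 30 °C). The last pooled column was of Mex67-AA cells labelled as at 37 °C with rapamycin for 16 min. The heading of that last column gives another temperature and the study describes heat that began after the rapamycin, so its time at 37 °C is uncertain. Its control was Mex67-AA cells at 25 °C without rapamycin.

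As background, these factors form the upper layer of the yeast stress and growth programmes. Hsf1 drives chaperone genes through heat shock elements, and Msn2 and its paralog Msn4 drive the general stress response through the AGGGG stress response element when protein kinase A activity falls. Yap1 serves the oxidative stress response, Rpn4 the genes of the proteasome, Gcn4 amino acid synthesis and Met4 sulfur metabolism. Rpn4 protein is itself a substrate of the proteasome, and GCN4 mRNA is held under translational control by short reading frames in its leader. Sfp1, Rap1 and the coactivator Ifh1 act on ribosomal protein genes, and Rap1 also binds telomeres.

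The regions ahead of 4 of the transcript models are shown because these genes carried the main contrasts: RPN4 and MSN2 mRNA rose under heat, GCN4 was by far the most abundant of the set, and SFP1 belongs to the growth factors. Each sequence is the 250 bases upstream of the start of the deposited model, 5′ to 3′ on the gene's strand, read from the RefSeq genome of strain S288C (build R64, sacCer3), not from W303. Capitals mark matches to 9 motifs that were searched on both strands: TTCNNGAA and GAANNTTC (units of the heat shock element), AGGGG (stress response element), TTACTAA and TTAGTAA (Yap1), TGACTCA (Gcn4), GGTGGCAAA (proteasome element), CACGTG (Cbf1) and TGTGGC (Met31 and Met32). TTACTAA and TTAGTAA are reverse complements and mark the same sites.
RPN4, chrIV:416958-417207, minus strand: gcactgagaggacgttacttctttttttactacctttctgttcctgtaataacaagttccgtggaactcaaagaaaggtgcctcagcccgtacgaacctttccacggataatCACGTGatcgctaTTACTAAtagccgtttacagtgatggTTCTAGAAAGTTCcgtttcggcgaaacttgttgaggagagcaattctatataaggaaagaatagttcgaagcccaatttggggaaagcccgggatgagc
MSN2, chrXIII:346982-347231, minus strand: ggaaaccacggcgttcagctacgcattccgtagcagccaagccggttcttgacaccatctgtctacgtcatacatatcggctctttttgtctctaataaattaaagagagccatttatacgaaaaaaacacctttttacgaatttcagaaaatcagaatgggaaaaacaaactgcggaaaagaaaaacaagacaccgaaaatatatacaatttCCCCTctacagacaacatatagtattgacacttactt
GCN4, chrV:140366-140615, minus strand: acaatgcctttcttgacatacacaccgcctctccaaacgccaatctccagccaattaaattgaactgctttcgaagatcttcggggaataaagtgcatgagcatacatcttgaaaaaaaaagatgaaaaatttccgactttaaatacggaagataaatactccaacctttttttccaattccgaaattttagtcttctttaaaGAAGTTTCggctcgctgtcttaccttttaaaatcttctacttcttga
SFP1, chrXII:924655-924904, plus strand: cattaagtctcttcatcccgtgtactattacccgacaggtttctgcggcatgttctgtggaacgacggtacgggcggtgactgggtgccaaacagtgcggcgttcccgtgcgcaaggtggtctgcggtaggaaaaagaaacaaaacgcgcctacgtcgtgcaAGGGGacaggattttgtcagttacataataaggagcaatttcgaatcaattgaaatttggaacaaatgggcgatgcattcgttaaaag
In the RPN4 region TTCNNGAA lay 99 to 92 bases and GAANNTTC 94 to 87 bases ahead of the start, so that both overlap, with TTACTAA at 125 to 119 and CACGTG at 138 to 133. The MSN2 region held AGGGG on the other strand at 37 to 33 bases (read here as CCCCT), SFP1 held it at 88 to 84 and GCN4 held GAANNTTC at 47 to 40. The MET4 region, not printed, held CACGTG at 167 to 162, TGTGGC on the other strand at 101 to 96 and GAANNTTC at 81 to 74. No searched letters were found in these windows for YAP1, MSN4, HSF1, RAP1 and IFH1. Of 5878 such windows over all genes, 11.6% held TTCNNGAA, 10.2% GAANNTTC, 18.8% AGGGG, 6.41% TTACTAA, 3.90% CACGTG, 6.55% TGTGGC, 2.35% TGACTCA and 1.19% GGTGGCAAA. These matches are of letters only.

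The models of the 10 genes ran from 1536 bases (GCN4, chrV:138830-140365, minus strand) to 3840 bases (IFH1, chrXII:581982-585821, minus strand), and each held the whole coding region of its gene. The part ahead of the coding region was longest in SFP1 (663 bases), GCN4 (602 bases) and MSN4 (520 bases) and shortest in RAP1 (101 bases). The remaining models were YAP1 at chrXIII:253658-256001, MSN2 at chrXIII:344142-346981 (minus strand), MSN4 at chrXI:322708-325179, HSF1 at chrVII:368460-371355, RPN4 at chrIV:414974-416957 (minus strand), MET4 at chrXIV:427572-429803, SFP1 at chrXII:924905-928016 and RAP1 at chrXIV:241588-244259. The SFP1 row also covers YLR402W and the IFH1 row also covers YLR222C-A, so reads of these overlapping frames cannot be told apart from the factor's own.

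Depth set how far each member could be followed. ENO2 RNA is the control strand of the DRS kit, and the study drops ENO2 reads before scaling. Without them, heat libraries held 25838 to 668505 reads, Mex67-AA libraries 188519 to 2184459, thiolutin libraries 320726 to 777753 and pooled columns 348649 to 5485510. All levels are shares of a library in RPM (reads scaled to a library total of 1000000), so a rise of a member and a fall of the rest cannot be told apart, and neither can fewer molecules per cell and fewer cells. In the heat library of replicate D at 4 min 1 read was worth 38.7 RPM, so a single molecule there equals a typical level of several members. In the strain tables the deleted gene was at 4.26 RPM for CCR4 (31.4 in WT), 0.692 for PAN2 (33.0 in WT) and 2.87 for POP2 (59.3 in undigested WT RNA). DCP2 was at 8.18 against 87.8 and XRN1 at 11.8 against 149 in the strain that carries its degron. PAB1 was at 30.7 and 39.9 after auxin against 23.1 without, and since the degron acts on protein its RNA does not check that label.

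At steady state GCN4 stood far apart from the other 9 genes. Over the 7 control libraries of the chases (0 min), its median was 1233 RPM (range 688 to 1534). Next came SFP1 at 53.6 (17.1 to 61.8), YAP1 at 47.2 (23.2 to 53.4) and RPN4 at 38.5 (24.8 to 58.1), whose ranges overlapped. RAP1 had a median of 26.1 (11.6 to 41.5), MSN2 25.9 (10.7 to 58.1), IFH1 19.6 (8.55 to 69.7), MET4 16.5 (14.3 to 34.9) and HSF1 13.7 (6.40 to 19.2). Neighbours in this order did not separate beyond their spread. MSN4 had a median of 0 and never more than 1.37 RPM in a control. Per kilobase of model the medians were 802 RPM for GCN4, 20.1 for YAP1, 19.4 for RPN4, 17.2 for SFP1, 9.77 for RAP1, 9.12 for MSN2, 7.38 for MET4, 5.12 for IFH1 and 4.74 for HSF1. The mean pA-tail in the controls, taken only from 10 or more reads, had a median of 46.4 adenosines for YAP1 (44.0 to 52.9 over 6 libraries) and 26.9 for IFH1 (24.4 to 41.1 over 4 libraries). The other members lay between these, with GCN4 at 40.2 (36.1 to 44.1 over 7 libraries) and RPN4 at 39.2 (30.9 to 50.3 over 6 libraries).

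The heat chase asked how mRNA levels and pA-tails move as cells pass to 37 °C. RPN4 mRNA had risen about 6-fold by 2 to 8 min, before any other member passed the test. By 10 to 16 min RPN4, MSN2, HSF1, YAP1 and SFP1 were higher and GCN4 and IFH1 lower, and by 18 to 20 min only the 5 higher genes were called. MET4 and RAP1 passed the test in no window, and MSN4 was too rare to be tested. Changes were tested in edgeR with the replicate as a block and Benjamini-Hochberg adjustment over all 4016 transcripts tested, at a threshold of 0.05.

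Of the 9 members tested, 1 was called at 2 to 8 min, where 6.82% of all transcripts tested were called (5.9% higher and 0.921% lower). At 10 to 16 min 7 members were called against 56.5% of all (41% higher and 15.5% lower), and at 18 to 20 min 5 members against 49.4% of all (40.9% higher and 8.49% lower). The median log2 change of all transcripts was 0.12, 0.58 and 0.73 in the 3 windows, and that of the members was -0.12, 0.52 and 0.67. With TMM factors these medians of all transcripts came to -0.0090, 0.13 and 0.12, and the 1646 higher and 623 lower transcripts of the 10 to 16 min window became 901 and 885. At 18 to 20 min 1644 higher and 341 lower became 548 and 579. DESeq2 with its size factors gave 920 higher and 858 lower at 10 to 16 min, and 579 and 577 at 18 to 20 min. Many calls on a rise therefore depend on the scaling. With TMM factors none of the 5 members called at 18 to 20 min kept its call.

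RPN4, the activator of proteasome genes, had the earliest call and the highest fold change of the members. Its controls held 24.8, 32.0 and 58.1 RPM (A, B and D). At 2 to 8 min the 6 libraries ran from 126 over a median of 189 to 348, the highest resting on 9 reads of the shallow library of replicate D. At 10 to 16 min they ran from 92.4 over 159 to 177, and at 18 to 20 min they held 123, 74.7 and 84.3. Every heated library lay above every control, and in each replicate the last window stood below the first. The fold change was 6.03 at 2 to 8 min (log2 2.59 ± 0.36 SE, adjusted p = 0.000478), 4.78 at 10 to 16 min (log2 2.26 ± 0.36, adjusted p = 9.67e-05) and 3.11 at 18 to 20 min (log2 1.64 ± 0.40, adjusted p = 0.00296). The first call was lost without replicate B (log2 2.52, adjusted p = 0.07). The last was lost with TMM factors (log2 1.02, adjusted p = 0.0549).

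MSN2, which encodes the main activator of the general stress response, passed the test later. Its controls held 31.8, 17.1 and 58.1 RPM, the last from replicate D. At 2 to 8 min the libraries ran from 25.5 over 44.3 to 99.5 and overlapped the controls. At 10 to 16 min they ran from 77.1 over 90.9 to 119.7, and at 18 to 20 min they held 78.9, 65.4 and 73.8, all above the controls. The fold change was 3.06 at 10 to 16 min (log2 1.61 ± 0.36, adjusted p = 0.00107) and 2.42 at 18 to 20 min (log2 1.28 ± 0.40, adjusted p = 0.0139), the latter lost with TMM factors (log2 0.67, adjusted p = 0.197). Its paralog MSN4 was seen in only 5 of the 15 heated libraries, with 3 reads in replicate D at 8 min and 1 read in each of the others, and in none of the 3 controls.

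HSF1 and YAP1, the factors of the heat shock and oxidative stress responses, separated from their controls at 10 to 16 min. HSF1 controls held 17.7, 6.40 and 11.6 RPM. Heated libraries of HSF1 overlapped them at 2 to 8 min (4.54 over 17.9 to 38.7), ran from 19.3 over 28.1 to 38.9 at 10 to 16 min and held 49.6, 28.0 and 31.6 at 18 to 20 min. Both later windows lay wholly above the controls, with a fold change of 2.46 (log2 1.30 ± 0.43, adjusted p = 0.0168) and 3.02 (log2 1.60 ± 0.47, adjusted p = 0.0102). YAP1 controls held 38.9, 53.4 and 23.2. YAP1 ran from 21.2 over 29.8 to 38.7 at 2 to 8 min, from 58.0 over 70.6 to 95.7 at 10 to 16 min, and held 127, 88.7 and 88.5 at 18 to 20 min. It thus stood in or below the range of the controls first and above it later, with a fold change of 0.671 at 2 to 8 min (log2 -0.58 ± 0.29, adjusted p = 0.242), 1.75 at 10 to 16 min (log2 0.80 ± 0.27, adjusted p = 0.0178) and 2.53 at 18 to 20 min (log2 1.34 ± 0.30, adjusted p = 0.00159). With TMM factors both genes lost their calls in both windows, with log2 values of 0.84 and 0.97 for HSF1 (adjusted p = 0.113 and 0.122) and 0.34 and 0.70 for YAP1 (adjusted p = 0.306 and 0.071).

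GCN4 lay below its controls in every library up to 16 min. Those controls were close together at 1482, 1499 and 1534 RPM. At 2 to 8 min the libraries ran from 735 over 903 to 1306, at 10 to 16 min from 775 over 921 to 1352, and at 18 to 20 min they held 1215, 1331 and 1564. Of the last window, 2 libraries were below the controls and 1 above. The fold change was 0.649 at 2 to 8 min (log2 -0.62 ± 0.19, adjusted p = 0.0563), 0.646 at 10 to 16 min (log2 -0.63 ± 0.19, adjusted p = 0.00952) and 0.908 at 18 to 20 min (log2 -0.14 ± 0.22, adjusted p = 0.605). DESeq2 called the first window (log2 -0.74, adjusted p = 0.0231) and the last (log2 -0.70, adjusted p = 0.0287) too.

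The factors of ribosomal protein genes and MET4 moved less, or on few reads. SFP1 controls held 51.3, 47.0 and 58.1 RPM, and its libraries ran from 50.2 over 68.3 to 83.8 at 10 to 16 min and held 95.4, 79.4 and 54.8 at 18 to 20 min. Replicate D overlapped the controls, and the rise of 1.43-fold (log2 0.52 ± 0.22, adjusted p = 0.0490) and 1.59-fold (log2 0.67 ± 0.24, adjusted p = 0.0283) came to log2 0.07 and 0.05 with TMM factors, not called. IFH1 controls held 23.0, 12.8 and 69.7, the last from 6 reads, and its libraries ran from 0 over 6.46 to 10.9 at 10 to 16 min. All 6 lay below the controls, at a fold change of 0.256 (log2 -1.96 ± 0.74, adjusted p = 0.0307), but without the 2 libraries of under 100000 reads the log2 value was -1.36 (adjusted p = 0.135). RAP1 held 23.0, 29.9 and 11.6 in the controls and ran from 8.16 over 21.9 to 36.2 at 10 to 16 min (log2 -0.22 ± 0.44, adjusted p = 0.688). MET4 held 23.0, 14.9 and 34.9 in the controls and ran from 18.5 over 22.2 to 29.0 (log2 0.12 ± 0.33, adjusted p = 0.778). For these 2 genes the heated libraries overlapped the controls.

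**Figure D1:**
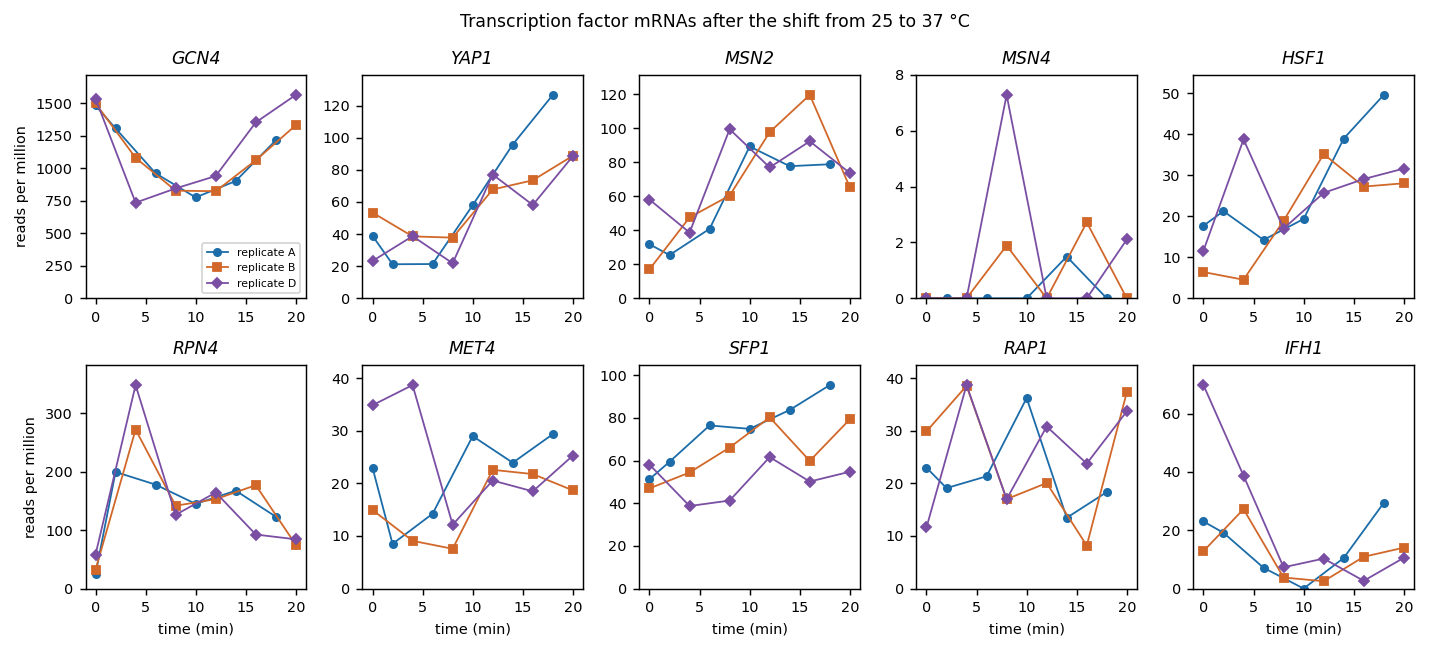
RPM of each member against minutes at 37 °C, 1 panel a gene with its own axis, with replicates A, B and D as points joined by lines. RPN4 is highest in the first window, MSN2, HSF1 and YAP1 rise later, and GCN4 dips below its 3 controls of 1482 to 1534 before it returns.

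Under heat the pA-tails of the members showed no call. Only GCN4, YAP1, RPN4 and SFP1 had enough reads for the limma test on mean tails, and the libraries with under 10 reads of a gene were dropped from its fit. No member was called, beside 0.464% of the 2373 transcripts tested at 2 to 8 min (0.379% longer and 0.0843% shorter) and 0.0421% in each later window (371, 396 and 344 transcripts at an unadjusted p below 0.05). GCN4 tails averaged 40.2, 41.3 and 39.7 adenosines in the controls. They ran from 32.7 over 35.3 to 39.1 at 2 to 8 min, from 38 over 42.9 to 45.6 at 10 to 16 min, and came to 48.4, 47.2 and 48.5 at 18 to 20 min. All 6 libraries of the first window thus lay below the controls and all 3 of the last above, with differences of -5.01 ± 1.84 (adjusted p = 0.203) and 7.64 ± 2.13 adenosines (adjusted p = 0.170) that did not pass adjustment over all transcripts. The study left its heat libraries at 18 to 20 min out of its tail modelling. For mRNAs silenced by heat it describes a recovery of tails and levels there, likely from resumed transcription. For the members this was not tested. SFP1 tails differed by 10.6, 9.37 and 10.9 adenosines in the 3 windows, with adjusted p from 0.284 to 0.333.

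After Mex67 was removed from the nucleus, which blocks export of new mRNA, 7 of the 9 members tested were lower at 12 to 16 min and none was higher. IFH1 and HSF1 lost most, followed by MET4, SFP1, YAP1, RAP1 and MSN2. GCN4 was not called, and RPN4 differed between replicates. At 20 to 30 min YAP1, MSN2, RAP1, IFH1 and SFP1 were lower, and HSF1, MET4, RPN4 and GCN4 were not called. No transcript of 4424 was called at 4 to 10 min (percent called 0) by edgeR or DESeq2, with 506 at an unadjusted p below 0.05 and 1 called with TMM factors. The share called was 69.1% at 12 to 16 min (2.94% higher and 66.1% lower) and 77.3% at 20 to 30 min (4.5% higher and 72.8% lower), so the members' share lower at 12 to 16 min, 7 of 9, was close to that of all transcripts. The median log2 change of all transcripts was -0.33, -1.16 and -1.62 in the 3 windows. With TMM factors it was -0.0064, -0.28 and -0.37, and 932 transcripts were higher and 1347 lower at 12 to 16 min in place of 130 and 2925. At 20 to 30 min TMM factors gave 927 higher and 1288 lower in place of 199 and 3222.

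IFH1, the coactivator of ribosomal protein genes, fell furthest. Its controls held 15.1, 19.6 and 8.55 RPM (A, B and C). At 12 to 16 min the 6 libraries ran from 0 over 1.59 to 2.21, all below the controls, at a fold change of 0.115 (log2 -3.12 ± 0.58, adjusted p = 0.000115), and at 20 to 30 min they held 6.76, 2.06 and 8.78 (log2 -1.41 ± 0.60, adjusted p = 0.0354). HSF1 held 13.7, 9.82 and 19.2 in the controls and ran from 0 over 2.53 to 4.13 at 12 to 16 min (fold change 0.194, log2 -2.36 ± 0.56, adjusted p = 0.000980), again without overlap, and held 11, 4.11 and 4.39 at 20 to 30 min (log2 -1.06 ± 0.58, adjusted p = 0.0961). In both genes the last window stood above the one before in replicates A and C, on at most 13 reads a library. MET4 followed the same order of values, with controls of 16.5, 15.2 and 29.9, a range from 2.21 over 4.51 to 12.4 at 12 to 16 min (log2 -1.90 ± 0.50, adjusted p = 0.00219) and 18.6, 8.91 and 16.1 at 20 to 30 min (log2 -0.43 ± 0.51, adjusted p = 0.436). With TMM factors the call on MET4 at 12 to 16 min was lost (log2 -1.03, adjusted p = 0.0503).

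YAP1, SFP1, RAP1 and MSN2 stayed low in both later windows. YAP1 held 47.2, 46.4 and 53.4 RPM in the controls, ran from 11.1 over 13.2 to 16.5 at 12 to 16 min (log2 -1.75 ± 0.27, adjusted p = 2.15e-05) and held 13.5, 12.3 and 17.6 at 20 to 30 min (log2 -1.78 ± 0.31, adjusted p = 3.45e-05). SFP1 held 61.8, 53.6 and 17.1 in the controls and ran from 11.8 over 14.6 to 16.0 at 12 to 16 min (log2 -1.81 ± 0.43, adjusted p = 0.00102). RAP1 held 26.1, 31.3 and 21.4 and ran from 0 over 6.50 to 15.5 (log2 -1.69 ± 0.43, adjusted p = 0.00183). For these 3 genes no library at 12 to 16 min reached the controls. MSN2 held 44.4, 25.9 and 10.7 and ran from 8.08 over 11 to 12 (log2 -1.56 ± 0.38, adjusted p = 0.00139), and there only 2 of 6 libraries lay below the control of replicate C. At 20 to 30 min the log2 change was -1.24 ± 0.49 for SFP1 (adjusted p = 0.0253), -1.50 ± 0.50 for RAP1 (adjusted p = 0.00964) and -1.64 ± 0.46 for MSN2 (adjusted p = 0.00264). With TMM factors the calls on MSN2 and RAP1 at 12 to 16 min were lost (log2 -0.71 and -0.80, adjusted p = 0.0726 and 0.0684), and none of the members called lower at 20 to 30 min kept its call (log2 -0.53 for YAP1, -0.39 for MSN2, -0.26 for RAP1, -0.19 for IFH1 and, with its sign turned, 0.0023 for SFP1).

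GCN4 and RPN4 behaved otherwise. GCN4 controls held 1079, 1233 and 688 RPM. The 12 to 16 min libraries ran from 1009 over 1198 to 1272 and the last window held 1049, 1104 and 847, both in or above the range of the controls. The log2 change was 0.19 ± 0.12 (adjusted p = 0.155) and 0.03 ± 0.14 (adjusted p = 0.858), while with TMM factors GCN4 was called higher in both windows (log2 1.08 and 1.31, adjusted p = 2.91e-05 and 3.42e-06). RPN4 controls held 54.0, 36.6 and 38.5. At 12 to 16 min replicates A and B held 12.9 to 27.9, below the controls, whereas replicate C at 16 min held 78.5 from 19 reads. At 20 to 30 min RPN4 held 85.4 in replicate A and 123 in C at 30 min, and 24.7 in B at 20 min, so of the libraries in these 2 windows those at 30 min and C at 16 min stood above all 3 controls. The log2 change of RPN4 was -0.82 ± 0.41 at 12 to 16 min (adjusted p = 0.0769) and 0.56 ± 0.44 at 20 to 30 min (adjusted p = 0.242). The first value was called with no filter beyond 1 read (-0.82, adjusted p = 0.0165). Without replicate C it was -1.28 (adjusted p = 0.0156), without replicate B the second was 0.95 (adjusted p = 0.0334), and with TMM factors they were 0.05 and 1.85 (adjusted p = 2.93e-05 for the second).

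**Figure D2:**
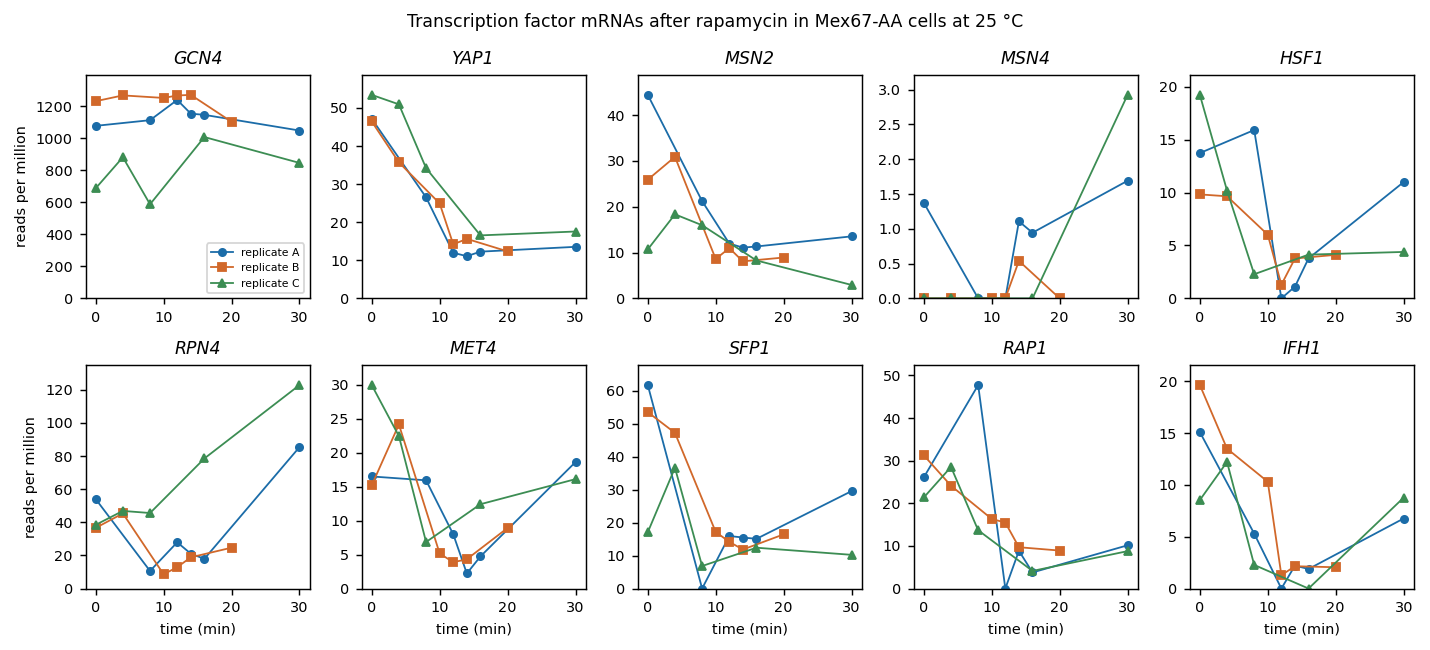
RPM of each member against minutes after rapamycin in Mex67-AA cells, 1 panel a gene with its own axis, with replicates A, B and C as points joined by lines. IFH1, HSF1, YAP1, SFP1 and RAP1 fall by 12 to 16 min, GCN4 stays in or above the range of its controls, and RPN4 stands at 85.4 and 123 in the 2 libraries at 30 min.

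The pA-tails after export block split the members in a way the levels did not. The study left the last time points of each replicate out of its tail modelling. It describes the longer mean tails there as a likely effect of hyperadenylation of a few nuclear mRNAs, which weigh more as cytoplasmic mRNA is lost. For the members this was not tested. RPN4 tails averaged 39.9, 33.5 and 30.9 adenosines in the controls. At 12 to 16 min they came to 92.5 and 89.7 in replicate A, 81.5 and 92.6 in B and 88.2 in C, and at 20 to 30 min to 79.1, 93.9 and 81.0. Replicate B at 10 min (89.9) and C at 8 min (97.5) already held such tails, while both replicates at 4 min did not (40.6 and 24.7). The difference was 53.6 ± 13.9 adenosines at 12 to 16 min (adjusted p = 0.00773, 5 of 6 libraries) and 49.9 ± 15.5 at 20 to 30 min (adjusted p = 0.0160). With at least 20 reads a library in place of 10, both calls were lost (50.4 at 12 to 16 min, adjusted p = 0.0828).

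SFP1 and RAP1 also held longer tails. SFP1 controls averaged 39.7 and 45.6 adenosines (replicate C had too few reads), and the 4 libraries at 12 to 16 min ran from 59.5 to 83.6, at a difference of 27.3 ± 5.2 (adjusted p = 0.00456). At 20 to 30 min they held 75 and 65.4 (27.5 ± 6.0, adjusted p = 0.00596). RAP1 stayed at 27.2 and 27.4 in replicate B at 12 and 14 min and held 66.5 in B at 20 min and 95.2 in A at 30 min, against controls of 28.4, 32.5 and 39.3 (47.4 ± 7.9 at 20 to 30 min, adjusted p = 0.00285). MSN2 differed by 12.9 (adjusted p = 0.166) and 21.2 (adjusted p = 0.0689), and its call depended on the summary of the tail. The 75th percentile of the MSN2 tail was longer by 30.1 and 28.9 adenosines (adjusted p = 0.0187 and 0.0393), and weights by the square root of the reads gave 20.9 in the last window (adjusted p = 0.0245). YAP1 differed by -7.18 (adjusted p = 0.50) and 9.23 (adjusted p = 0.417). MET4 and HSF1 did not have tails in every window, as the main test required. MET4 held 66.0, 55.1 and 65.2 adenosines at 20 to 30 min against 41.5, 36.6 and 28.2 in its controls. With tails required only at 0 min and in that window, a choice made after the data were seen, MET4 was longer by 26.7 ± 3.9 (adjusted p = 0.00302), beside 14.3% longer and 46% shorter of 2315 transcripts. HSF1 could not be tested, and held 67.2 in replicate A at 30 min against 38 and 30.1. GCN4 went the other way and fell from 41.0, 38.2 and 36.1 adenosines to a range from 25.8 over 27.4 to 30.0 at 12 to 16 min, at a difference of -10.9 ± 2.3 (adjusted p = 0.00295), and to 33.4, 26.8 and 30.1 at 20 to 30 min (-8.35 ± 2.66, adjusted p = 0.0158). The second of these calls was lost with the 75th percentile (-6.67, adjusted p = 0.221).

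At 12 to 16 min 2 of 6 members tested were called longer and 1 shorter, beside 2.53% longer and 60.9% shorter of 2214 transcripts, and at 20 to 30 min 3 longer and 1 shorter, beside 12% and 48.2%. The percentage called in either direction was 63.5% and 60.2%, and 0 at 4 to 10 min. The median difference of all transcripts was -8.26 and -6.60 adenosines in the later windows and that of the members 5.67 and 24.4. Tail calls of GCN4 and RPN4 in both windows were lost when replicate A was left out (adjusted p from 0.0674 to 0.0904), and those at 20 to 30 min also without replicate B (0.0671 and 0.0944). The later SFP1 and RAP1 tails came from replicates A and B only. Their fits could be repeated only without replicate C (27.5 and 50.4 adenosines at 20 to 30 min), so these calls were not tested without A or B.

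**Figure D3:**
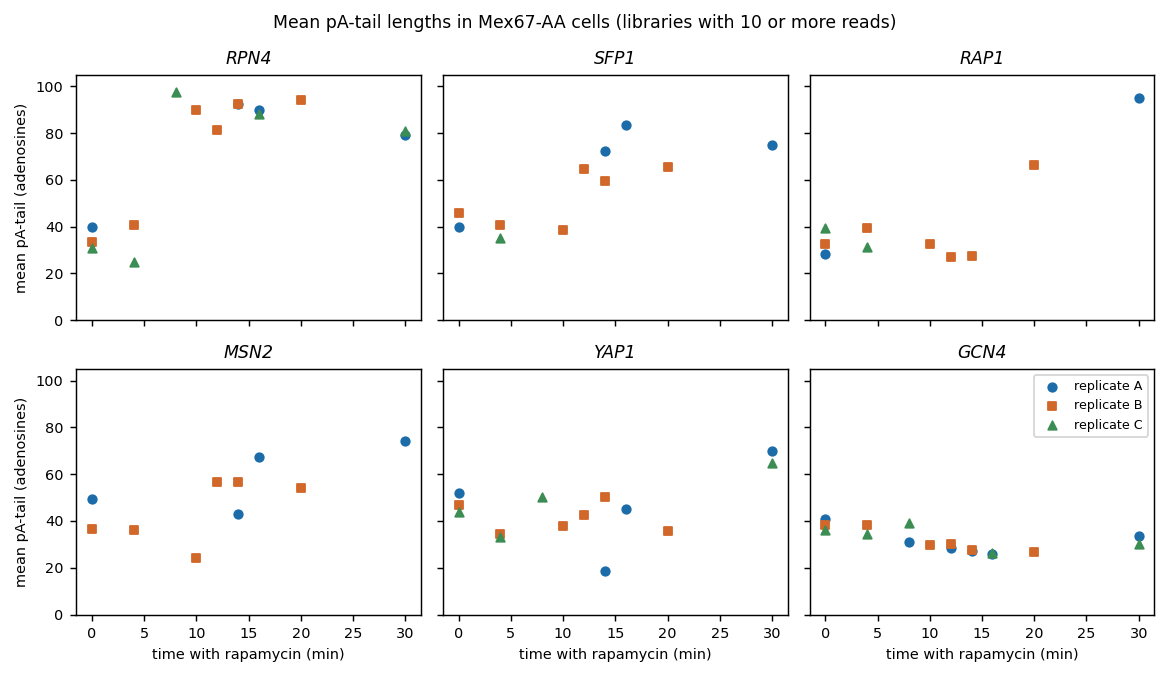
Mean pA-tail in adenosines of each member with 10 or more reads against minutes after rapamycin in Mex67-AA cells, points by replicate. RPN4 points stand at 79.1 to 97.5 from 8 min onward, SFP1 and RAP1 rise later, and GCN4 falls to 25.8 at its lowest.

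A half-life was computed from the Mex67-AA chase by the study's own method, as ln 2 over the mean decay constant of all pairs of time points in a replicate, with constants of 0 or less removed, absent counts set to 0.01 reads and 0 min moved to 2.67 min, when the block sets in. IFH1 had the shortest value at 2.36 ± 0.39 min (SD, n = 3), followed by HSF1 at 3.17 ± 1.37, MET4 at 4.6 ± 0.95, SFP1 at 5.25 ± 1.83 and RAP1 at 5.44 ± 3.32. YAP1 came to 7.93 ± 2.09 min and MSN2 to 8.79 ± 2.66. Neighbours in this order overlapped within their SD. GCN4 gave 66.1, 68.5 and 19.1 min and RPN4 5.55, 5.83 and 100.8 min, and only 19 and 16 of their 40 constants were above 0, so neither gene has a half-life that its replicates share. The median of the 9 genes was 5.44 min, and it was 11.2 min with all constants kept. Values and order rest on these choices. With absent counts at 0.5 reads IFH1 came to 4.07 min and HSF1 to 3.62 min. The slope of edgeR over all time points, which removes no constant, gave 13.3 min for MSN2, 13.7 for YAP1, 14.5 for RAP1, 16.3 for IFH1, 18.2 for SFP1, 22.3 for HSF1 and 41.4 for MET4, and the slopes of HSF1 and MET4 did not pass the test (adjusted p = 0.0964 and 0.290).

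Set against each other in a single fit, the heat change at 10 to 16 min exceeded the Mex67-AA change at 12 to 16 min for 7 members and was smaller for GCN4. The difference was 3.60 ± 0.67 on the log2 scale for HSF1 (adjusted p = 3.21e-05), 3.18 ± 0.52 for MSN2 (5.68e-06 as adjusted p), 3.08 ± 0.60 for RPN4 (4.88e-05) and 2.56 ± 0.36 for YAP1 (9.90e-07). SFP1 differed by 2.33 ± 0.53 (adjusted p = 0.000273), MET4 by 2.01 ± 0.60 (0.00338) and RAP1 by 1.45 ± 0.63 (0.0365). GCN4 differed by -0.83 ± 0.24 (adjusted p = 0.00231), and IFH1 by 1.1 ± 0.91 (adjusted p = 0.272). Of all 4389 transcripts 76.1% were called (66.9% higher and 9.18% lower), with a median difference of 1.78, so that MET4, SFP1, MSN2, HSF1, RPN4 and YAP1 lay above that median and RAP1, IFH1 and GCN4 below it. TMM factors brought the median to 0.32 and the calls to 1192 higher and 1054 lower in place of 2938 and 403. They ended the calls on MET4 (0.56, adjusted p = 0.393), SFP1 (0.88, adjusted p = 0.108) and RAP1, whose sign turned (-0.04) as did that of IFH1 (-0.26). RAP1 also lost its call without the 2 heat libraries of under 100000 reads (adjusted p = 0.0741). The chases differ in strain as well as in treatment, and these cannot be told apart here.

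**Figure D4:**
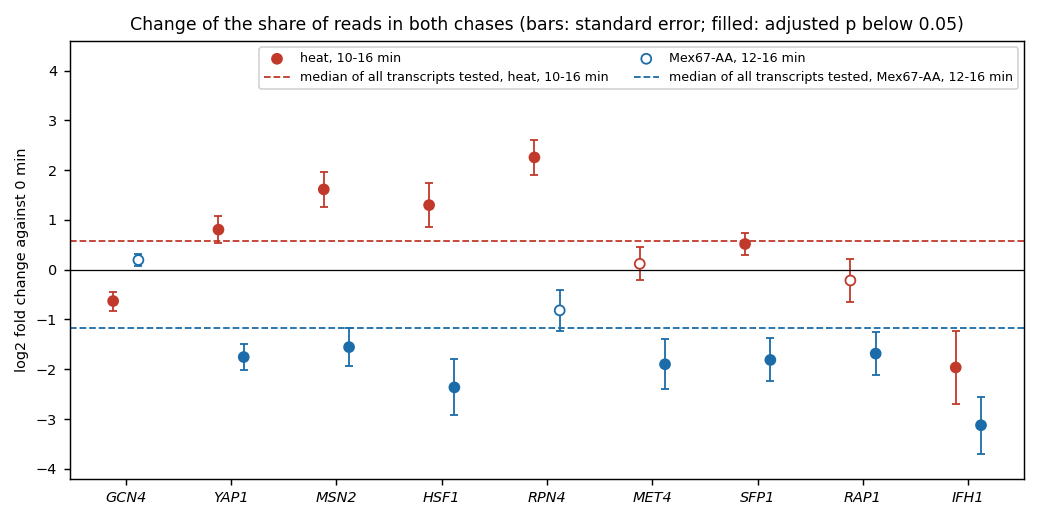
Log2 change with its SE of each tested member at heat 10 to 16 min and Mex67-AA 12 to 16 min, with filled points for an adjusted p below 0.05. Dashed lines give the median of all transcripts tested in each window. The heat value of RPN4 lies at 2.26, whereas the Mex67-AA values reach down to -3.12 for IFH1.

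Thiolutin was followed in a single replicate, so its values carry exact Poisson intervals for counting error only and no test. RPN4 went from 39.9 RPM at 0 min (95% interval 25.8 to 58.8) over 65.2, 58.2, 93.9 and 134 at 4, 8, 12 and 16 min to 123 at 20 min (98.3 to 151), 134 at 30 min and 128 at 60 min (91.7 to 173). The intervals at 0 min and from 12 min on did not overlap. GCN4 held 1220 at 0 min (1135 to 1309), 1114, 1328, 1299 and 1167 up to 16 min, then 939.9, 631 and 502 at 20, 30 and 60 min (427 to 586 for the last), below the interval at 0 min. RAP1 went from 41.5 (27.1 to 60.7) over 23.1, 34.9, 10.3, 18.0, 12.7 and 11.3 to 3.12 at 60 min from 1 read (0.0789 to 17.4). SFP1 went from 55.8 (38.9 to 77.6) over 31.5, 32.4, 28.3, 14.0, 21.2 and 22.7 to 15.6 (5.06 to 36.4). IFH1 went from 27.1 (15.8 to 43.4) over 18.9, 20.7 and 5.14 to 0 at 16 min, where the interval reaches 7.37, and was at 6.24 at 60 min (0.755 to 22.5). The intervals at 0 and 60 min did not overlap for RAP1 and SFP1 and did for IFH1. YAP1 (37.5 to 77.2 over the 8 libraries), MSN2 (12.6 to 36.0), MET4 (14.3 to 37.4) and HSF1 (10.4 to 28.1) had intervals at 60 min that overlap those at 0 min. Thiolutin tails of RPN4 averaged 35.8 to 54.3 adenosines, within which the control stood at 50.3.

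In strains with altered decay and in digested RNA, RPN4 was the member whose ratio to the control most often had an interval above 1, in 6 of 9 comparisons, some of which share a control. Pooled columns and single libraries hold no spread between samples, so each ratio carries an exact binomial 95% interval that covers counting error only and no test was made. Intervals are narrower for a gene with more reads, and how many open reading frames reach 6 such intervals was not determined. GCN4, the member with the most reads, had an interval below 1 in the Dcp2, Xrn1 and Pab1 depletions. GCN4 was also below 1 in the ccr4 deletion, in digested RNA and in the Mex67-AA cells with rapamycin. Members were compared where both columns held 10 or more reads, which left out MSN4 throughout. In the pop2 deletion RPN4 was at 224 RPM against 27.7 in undigested WT RNA, a ratio of 8.08 (5.36 to 12.4), which was the highest ratio of any member in the strain tables. HSF1 (2.72), YAP1 (2.50), SFP1 (2.37), MET4 (2.20) and IFH1 (2.09) were also above 1, while GCN4 was at 0.942 (0.844 to 1.05). Of 8 members compared there, 6 had an interval above 1 and 0 below, beside 43.2% and 7.78% of all open reading frames compared, and the median ratio was 2.28 against 1.57. The labels do not tie this strain to that WT library, so the strain and the run cannot be told apart.

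For the ccr4 and pan2 deletions the labels do not tell whether the pooled WT column is W303 or the WT that matches their background, so the deletion and the background cannot be told apart. In the ccr4 deletion RPN4 was at 87.0 against 50.1 RPM in WT (ratio 1.73, 1.44 to 2.09) and SFP1 at 64.8 against 35.7 (1.81, 1.46 to 2.25), whereas GCN4 (0.877) and IFH1 (0.666, 0.463 to 0.940) were below 1. That made 2 members of 9 above and 2 below, beside 27.9% and 18.5% of all. In the pan2 deletion, compared with the same WT column, RPN4 was at a ratio of 0.981 (0.795 to 1.21), and GCN4 (1.20), YAP1 (1.28), SFP1 (1.40) and RAP1 (1.45) were above 1. That made 4 of 9 above and 0 below, beside 13.3% and 37.9%. All 9 members had longer mean tails in both deletions, as did 94.5% and 85.5% of all. The WT tails rest on the main rows, which held 5857 of 7093 GCN4 reads, 115 of 145 MET4 reads and 75 of 87 HSF1 reads. The members' median tail difference was 11.7 adenosines in the ccr4 deletion (6.42 for all) and 3.08 in the pan2 deletion (6.38 for all). IFH1 stood out in the ccr4 deletion with 59.9 adenosines against 31.4, and GCN4 in the pan2 deletion with 59.5 against 44.1.

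Depletion of the decapping enzyme Dcp2 placed YAP1 at 201 against 98.1 RPM in the auxin-treated control (ratio 2.05, 1.66 to 2.53), SFP1 at 97.1 against 50.2 (1.94, 1.43 to 2.62) and RPN4 at 164 against 91.8 (1.78, 1.42 to 2.23), with GCN4 at 0.739 (0.696 to 0.785). Of 9 members 3 were above and 1 below, beside 39.9% and 11.1% of all. Depletion of the exonuclease Xrn1, set against the same control, placed RPN4 at 1.69 (1.35 to 2.11) and GCN4 at 0.895 (0.847 to 0.946), 1 member above and 1 below beside 28.7% and 21.5%. After loss of the poly(A) binding protein Pab1, set against the control without auxin, no member was above its control (5.92% of all at 1 h and 9.73% at 2 h). GCN4 was below at 1 h (0.849; 24.3% of all), and MET4 (0.476, 0.288 to 0.768), IFH1 (0.610, 0.391 to 0.938) and GCN4 (0.906) were below at 2 h (29.3% of all). All 9 members had longer tails at both times, as did 97.0% and 96.4% of all, and IFH1 went from 27.7 over 53.4 to 65.3 adenosines.

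Digestion of WT RNA with recombinant Xrn1, which removes RNA with an exposed 5′ end, placed RPN4 at 60.7 against 27.7 RPM (ratio 2.19, 1.39 to 3.49) and GCN4 at 0.810 (0.745 to 0.882). Of 7 members compared 1 was above and 1 below, beside 11% and 10.7% of all. The same digested sample differs between the 2 deposited tables that list it, and in the second RPN4 was at 1.77 (1.13 to 2.81) with 4 of 8 members below (8.38% above and 13.9% below over all). In the Mex67-AA cells labelled as at 37 °C with rapamycin RPN4 was at 73.6 RPM, against 48.1 at 25 °C without it (ratio 1.53, 1.23 to 1.91). The other 7 members compared were below 1 (11.2% of all above and 72.6% below). Heat and rapamycin both differ from the control, so their effects cannot be told apart here. SFP1 was at 0.248 there, RAP1 at 0.175 and GCN4 at 0.910. RPN4 tails averaged 80.9 adenosines against 38.3, MSN2 74.0 against 46.4 and SFP1 63.4 against 41.5, while GCN4 held 25.5 against 40.0 and YAP1 32.9 against 50.3. Over the members the median tail difference was 18.5 adenosines and over all -10.4. This control column is the sum of the chase controls of replicates A and B, so it adds no independent control to the Mex67-AA chase.

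The known targets of the factors, listed from textbook knowledge with earlier results of these data in view, moved under heat as follows at 10 to 16 min. The shares of all transcripts in that window were 41% higher and 15.5% lower. All 26 Hsf1 targets tested and all 22 Msn2 and Msn4 targets tested were higher, but 5 and 12 of them held under 10 reads over the 3 controls together. Such a gene passed the filter on low counts through the heated libraries where it is high, so these counts were fixed in part by the filter. The leading Hsf1 targets were the small chaperone HSP26, with 1 read over the controls and 1453 to 3655 RPM at 10 to 16 min, and SSA4, with 7 reads and 1630 to 4447 RPM. The leading Msn2 and Msn4 targets were HSP12, with 3 reads over the controls and 814 to 3059 RPM, and SOL4, with no read and 62.8 to 138 RPM. All 32 proteasome subunit genes listed for Rpn4, each with 10 or more reads over the controls, were higher at a median of 1.18, led by RPT2 (log2 2.17) and RPN5 (1.65). None of them was called at 2 to 8 min, when RPN4 itself was already up (5.9% of all were called higher there). TMM factors left 29 of the 32 called higher. All 27 ribosomal protein genes listed for Sfp1, Rap1 and Ifh1 were lower, with or without TMM factors, at a median of -1.02, led by RPL8A (-2.25). Yap1 targets had 9 higher and 1 lower of 17, with PRX1 at 3.56 and LYS20 at -2.26. Gcn4 targets had 3 higher and 6 lower of 21 (ARG3 at -1.84), which became 1 and 10 with TMM factors. Met4 targets had 2 higher and 3 lower of 13 (SAM1 at -2.69), which became 0 and 5. Of 28 regulators and partners of the factors 16 were higher and 0 lower (8 and 0 with TMM factors), led by the kinases YAK1 (2.82) and TPK2 (2.64). The median of all transcripts was 0.58.

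In Mex67-AA cells at 12 to 16 min, where 2.94% of all transcripts were higher and 66.1% lower at a median of -1.16, the lists differed from each other and most of their directions depended on the scaling. Regulators and partners had 0 higher and 18 lower of 28, close to the share of all (7 and 14 with TMM factors), at a median of -1.63 and led by MUB1 (log2 -3.43), which helps to degrade Rpn4. Proteasome subunits had 0 higher and 26 lower of 32 at a median of -0.70 (4 and 3 with TMM factors), and Hsf1 targets 0 and 14 of 25 at -0.52 (8 and 4). Ribosomal protein genes had more higher than lower, 12 and 3 of 27, at a median of 0.19 (23 and 1 with TMM factors), with RPL8A at -1.48. Gcn4 targets had 1 higher and 10 lower of 24 at a median of -0.43 (10 and 2), Yap1 targets 0 and 6 of 17 at -0.21 (10 and 1), Met4 targets 0 and 6 of 14 at -0.55 (4 and 1), and Msn2 and Msn4 targets 0 and 4 of 12 at -0.56 (3 and 0). In these last 4 lists the share lower was below that of all transcripts. These counts describe the lists and no test was made of them.

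The genes whose heat pattern was most like that of a member were sought by Pearson's r of log2(RPM + 1) over the 16 heat libraries with at least 100000 reads, among 3174 open reading frames. They are a description, since these libraries share replicates and times. GCN4 was most like VTC4 (r = 0.96) and RPS9A (0.96), YAP1 like QRI5 (0.95) and NIS1 (0.92), and MSN2 like GCY1 (0.95) and MEF2 (0.95). RPN4 was most like MPC3 (0.91) and BTN2 (0.89), HSF1 like RSM23 (0.90) and RPN5 (0.89), SFP1 like CAJ1 (0.84) and WWM1 (0.83), and RAP1 like KAP122 (0.85) and SUB2 (0.74). MSN4, MET4 and IFH1 had too few reads for this search.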

How the data were processed

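Per the paper and the submitters' processing notes, the authors called bases with Guppy, aligned reads with minimap2 2.17 to a yeast transcriptome (sacCer3), filtered them with SAMtools 1.9 and estimated pA-tails with Nanopolish. The counts are the authors' whole numbers of reads per transcript, and the deposited tail lengths, a score in adenosines, are their means, medians and percentiles. No depth scaling had been applied. Here ENO2 was dropped and counts were scaled to the library total. Abundance was tested in edgeR 4.0.16 (filterByExpr, quasi-likelihood) and tails of 10 or more reads in limma 3.58.1, with the replicate as a block, in R 4.3.3. DESeq2 1.42.0 and TMM factors were alternatives. The study computes decay within each replicate. Deviations from the window means were correlated between libraries of different windows. Within a replicate the median correlations were 0.0152 to 0.0503 under heat and 0.0477 to 0.307 in Mex67-AA. Between replicates they were -0.0351 under heat and -0.0673 in Mex67-AA. Both tests were tested on simulated data. Model starts are deposited counting from 0 and are printed counting from 1. All 10 members are named, as are the 2 called genes of each list with the largest change, some of them here. Members and lists were chosen with earlier results of these data known. Labels give separate replicates without naming cultures. A window takes libraries of several times from the same replicate, such as 6 at heat 10 to 16 min from A, B and D. The p-values therefore measure the spread between these libraries, including change over time inside a window, and not the spread between replicates alone. Another 7 count columns matched no sample or repeated another table and were not used. Mex67-AA at 60 min and thiolutin replicate B were not analysed here.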

Additional observations from a re-analysis of the deposited data

Results flagged for a closer look

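In all, 3 values stood far from the rest of their window, by Dixon's criterion, out of 56 windows of 4 to 10 libraries tested, of which chance picks about 1 in 20. MET4 was at 38.7 RPM in heat replicate D at 4 min, from 1 read, while the other 5 libraries at 2 to 8 min held 7.56 to 14.2. MSN4 was at 7.28 in heat replicate D at 8 min, from 3 reads, while the others held 0 to 1.89. RPN4 was at 78.5 in Mex67-AA replicate C at 16 min, from 19 reads, while the other 5 libraries at 12 to 16 min held 12.9 to 27.9.

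The change under heat differed from the change after export block by a test of the difference itself for 8 members, on the log2 scale as heat at 10 to 16 min minus Mex67-AA at 12 to 16 min. The values were 3.60 for HSF1, 3.18 for MSN2, 3.08 for RPN4, 2.56 for YAP1, 2.33 for SFP1, 2.01 for MET4, 1.45 for RAP1 and -0.83 for GCN4. Of all 4389 transcripts 76.1% were called too (66.9% higher and 9.18% lower), at a median difference of 1.78. With TMM factors the calls on SFP1, MET4 and RAP1 were lost.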

How the results depend on the processing

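Alternatives moved the count of members called as follows. At heat 2 to 8 min 1 member became 2 with DESeq2, with no filter beyond 1 read and with no replicate block (GCN4 was added), and 0 to 1 with 1 replicate left out. At heat 10 to 16 min 7 became 4 with TMM factors and 4 with DESeq2 (3 to 5 with 1 replicate left out), and at 18 to 20 min 5 became 0 with TMM factors and 2 with DESeq2, RPN4 and, as lower, GCN4 (0 to 5). In Mex67-AA 7 at 12 to 16 min became 4 to 8 with 1 replicate left out. There TMM factors ended the calls on MSN2, MET4 and RAP1, DESeq2 ended that on MSN2, and both called GCN4 higher. In the same chase 5 at 20 to 30 min became 2 with TMM factors and 2 with DESeq2 (2 to 5 with 1 replicate left out). Those 2 were GCN4 and RPN4, called higher, and none of the 5 lower calls was kept. For the difference of both chases 8 became 5 with TMM factors. Tail calls in Mex67-AA went from 3 to between 0 and 3 and from 4 to between 0 and 4 with 1 replicate left out, and the 4 became 2 with a minimum of 20 reads. The median half-life of 5.44 min became 11.2 with all constants kept and 16.3 from the slope of edgeR over 7 members. The members' tail difference after Pab1 loss, 14.3 and 16.1 adenosines, became 25.0 and 27.0 with median tails. The transcripts called moved widely with both scalings, and DESeq2 with its size factors brought them to 842 higher and 1402 lower at Mex67-AA 12 to 16 min, 930 and 1159 at 20 to 30 min, and 1927 and 810 for the difference of both chases.

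Signs turned as follows, none of them in a member called by the main test apart from SFP1 and RAP1, and the cause was not tested. With TMM factors MET4 was at -0.32 and -0.39 and RAP1 at -0.42 (heat 10 to 16 min and 18 to 20 min, and 18 to 20 min). In Mex67-AA they gave RAP1 0.11 at 4 to 10 min, RPN4 0.049 at 12 to 16 min, and HSF1 0.24, MET4 0.85 and SFP1 0.0023 at 20 to 30 min, and for the difference of both chases RAP1 -0.044 and IFH1 -0.26. DESeq2 gave -0.27, -0.34 and -0.34 for the same heat values, and 0.096, 0.029, 0.22, 0.86 and 0.063 for the same Mex67-AA values. Without a replicate block GCN4 at 20 to 30 min was at -0.0020 and the SFP1 tail at 4 to 10 min at -4.48 adenosines. Without libraries of under 100000 reads IFH1 at heat 18 to 20 min was at 0.27. Tails at 4 to 10 min gave -0.099, -5.54 and -2.21 for RAP1 (minimum of 5 reads, median tail, 75th percentile) and -2.12 and -9.75 for SFP1 (minimum of 20 reads, median tail). With 1 replicate left out, MET4 ranged from -0.13 to 0.34 and RAP1 from -0.43 to 0.23 at heat 10 to 16 min, and RAP1 from -0.053 to 0.44 and IFH1 from -1.23 to 0.36 at 18 to 20 min. In Mex67-AA RAP1 ranged from -0.37 to 0.36 and MET4 from -0.66 to 0.0075 at 4 to 10 min, GCN4 from -0.099 to 0.12 at 20 to 30 min, and the YAP1 tail at 12 to 16 min from -19.3 to 5.63 adenosines, where the RAP1 tail was at 3.03.

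Calls of single members that 1 left-out replicate ended were, under heat, RPN4 at 2 to 8 min (without B, adjusted p = 0.07), GCN4 (A or B), HSF1 (B), MSN2 (B), YAP1 (A or D), SFP1 (A or B) and IFH1 (A or D) at 10 to 16 min (adjusted p from 0.0713 to 0.34), and RPN4 (A), HSF1 (A or B), MSN2 (A or B), YAP1 (A) and SFP1 (A or B) at 18 to 20 min (0.0543 to 0.35). In Mex67-AA they were MSN2, MET4 and RAP1 at 12 to 16 min (A, adjusted p from 0.0608 to 0.142), and IFH1 (A), MSN2 (A), RAP1 (B) and SFP1 (A or B) at 20 to 30 min (0.062 to 0.139). For the difference of both chases it was RAP1 (heat A or D, Mex67-AA A or C, adjusted p from 0.0512 to 0.142). The block on the replicate was part of the main fit, and leaving it out ended the SFP1 calls under heat (log2 0.46 and 0.60). SFP1 at 10 to 16 min also lost its call with no filter, with ENO2 kept and with totals over open reading frames (adjusted p from 0.0505 to 0.225). Tails required only at 0 min and in the window tested, chosen after seeing the data, kept the calls of all members and added MET4. Depth limited MSN4, which was never tested, and tails of HSF1 and IFH1.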
